A study of Mus musculus with 4 samples.

Results

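Basal cells of the mouse epididymis and vas deferens were compared along the tube. The cells described here are the largest basal population in the authors' final annotation, whose label is simply Basal, and are called main basal cells. It holds 917 of 8880 cells, with 189 of them from the caput library, 306 from that of the corpus, 131 from that of the cauda and 291 from that of the vas deferens. All of them came from adult FVB/NJ males 10 to 12 weeks old, with no further treatment or allele named. Each region is 1 library, made from the pooled 8 pieces of that region from 4 mice after sperm had been washed away, so animals cannot be told apart and no region has a replicate. The counts of the main basal cells were summed within each library and genes were compared between the 4 sums.

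Basal cells rest on the basement membrane of this pseudostratified epithelium, beneath the principal cells, which secrete most luminal proteins, and the clear cells, which acidify the lumen. They anchor through hemidesmosomes, carry keratins 5 and 14 and the transcription factor p63, and in many epithelia serve as progenitors of the overlying cells. The tube is regionalised: principal cells of the caput, corpus, cauda and vas deferens secrete different sets of proteins, and androgens together with luminal factors from the testis help to shape its proximal end.

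The summed UMIs (unique molecular identifiers, each standing for 1 captured transcript) of the main basal cells were 1217760 for the caput, 1975012 for the corpus, 776446 for the cauda and 1129325 for the vas deferens. The median cell held 6325, 6796, 5781 and 3778 UMIs in the same order, so the cells of the vas deferens were the shallowest. Cells were scored against simulated doublets, and the highest-scoring cells of each whole library were called doublets. The number called was set beforehand by an assumed rate of 0.8% for every 1000 cells, which gave 16, 43, 21 and 98. Of the 917 main basal cells 28 (1, 13, 5 and 9) were among them, and 8 of the 917 carried a barcode that also occurs in another library. The identity of the cells was checked against 15 basal markers, whose summed level was 11233, 15393, 16956 and 12154 UMIs in every 1000000 across the 4 libraries, against 769 to 1110.0 in the principal cells. Cells holding at least 3 UMIs of endothelial, immune, stromal or clear cell markers numbered 4 of 189, 10 of 306, 11 of 131 and 45 of 291, most of them in the vas deferens.

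With 1 library for each region no test of regions was possible. Levels are given as UPM, which is UMIs in every 1000000 UMIs summed over the cells of that type in that library, in the order caput, corpus, cauda and vas deferens unless said otherwise, and intervals are exact 95% Poisson intervals for levels and exact conditional intervals for ratios, which cover counting error only. A gene was called region-higher where 1 library held 20 or more of its UMIs and stood 2-fold or more above each of the other 3, any library under 3 UMIs being raised to 3. Because transcripts of neighbouring cells float in the suspension, each such gene was then set against the other cells of the same library. It passed this principal-cell check where its level in main basal cells was at least that in principal cells and at least that in all cells outside the basal populations.

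Most genes of the main basal cells stood at similar levels along the tube, and most of the region-higher ones belonged to the caput and the vas deferens. Of 7180 genes that reached 20 UMIs in some library, 706 (9.83%) were region-higher and 423 (5.89%) also passed the principal-cell check. The caput held 397 (6.8% of 5842 genes with 20 UMIs there), of which 251 (4.3%) passed, and the vas deferens held 215 (3.9% of 5517), of which 117 (2.12%) passed. The corpus held 46 (0.692% of 6644), of which 15 (0.226%) passed, and the cauda held 48 (1.15% of 4172), of which 40 (0.959%) passed. At 4-fold 146 genes (2.03%) were region-higher, 60 (1.03%) for the caput, 16 (0.241%) for the corpus, 3 (0.0719%) for the cauda and 67 (1.21%) for the vas deferens. Just outside the 2-fold line lay *F3* in the corpus and *Dgka* in the cauda, both at 1.99, and just inside it *Nppc* at 2.06 and *Sf3a2* at 2.02. Among the 3873 genes with 20 UMIs in every library the median ratio of the highest to the lowest library was 1.63, and 2839 of these genes (73.3%) lay within 2-fold across all 4.

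**Figure D1:**
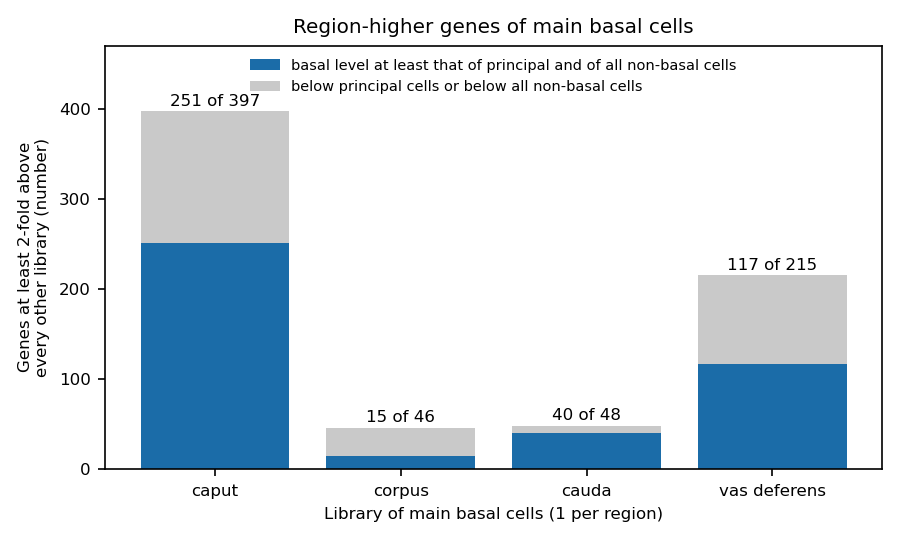
Bars give the number of genes that were at least 2-fold higher in the main basal cells of 1 library than in each of the other 3, divided into genes that passed and genes that failed the principal-cell check. The caput bar is the tallest, with 251 of 397 passing, and in the corpus only 15 of 46 passed.

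The order of the libraries in pairwise comparisons followed the tube only in part. Over the 3873 genes the rank correlation, which is across genes and describes these libraries only, was highest between corpus and cauda (0.913), where 164 genes (4.23%) differed by 2-fold. It was lowest between caput and cauda (0.786), where 640 genes (16.5%) did, while caput and corpus, which adjoin, gave 0.886 and cauda and vas deferens 0.890. Corpus and vas deferens, which do not adjoin, gave 0.900. Scaling by the median of ratios over genes in place of the total moved the libraries by 0.089, -0.086, -0.028 and 0.094 on the log2 scale, which lowered the share of genes highest in the caput from 34.9% to 30.1% and raised that of the corpus from 10.8% to 18.7%.

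Positions are those of GRCm38 (mm10), from GENCODE M21. Genes below were named by a rule, except some list members added after their values were seen, which are *Apoe*, *Atp1b1*, *Col4a3*, *Cxcl1*, *Dusp6*, *Foxa1*, *Foxq1*, *Gbp2*, *Gjb2*, *H2-K1*, *H2-Q4*, *Irf7*, *Jag1*, *Lcn2*, *Mt1*, *Nfix*, *Notch2*, *Psmb8*, *Psmb9*, *Psmb10*, *Ptges*, *Scnn1a*, *Smad7*, *Tap1* and *Tsc22d3*. In the caput the genes with the firmest excess over every other library encoded a neuropeptide, a connexin, a growth factor and transcription factors of the early response. *Qrfp* (chr2:31806166-31810580, minus strand), the precursor of an RFamide neuropeptide, stood at 66.5, 3.04, 1.29 and 2.66 UPM. Its caput level was 21.9 times that of the corpus (95% interval 9.63 to 61.4), the UMIs came from 47 of 189 caput cells, and caput principal cells were at 2.32. *Gjb6* (chr14:57123303-57133611), connexin 30, was at 47.6, 2.53, 0 and 1.77, which is 18.8 times the corpus (7.62 to 60.1) and at least 12.3-fold higher than the cauda, where no UMI was seen. It was found in 41 of 189 caput cells.

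*Nrtn* (neurturin, a ligand of the GDNF family) was at 135, 21.3, 16.7 and 25.7 UPM, 5.28 times the next library (3.54 to 8.12), and *Mlph* (melanophilin, a linker of vesicles to myosin) at 53.4, 7.09, 3.86 and 3.54, a 7.53-fold excess (4.18 to 14.5). *Mlph* stood higher in clear cells of the caput, at 102, than in the basal cells. *Fosb* and *Egr1*, transcription factors induced within minutes of stimulation, completed the set. *Fosb* was at 1093, 273, 92.7 and 132 and *Egr1* at 695, 136, 79.9 and 178, which is 4.00 times (3.61 to 4.43) and 3.90 times (3.34 to 4.58) the next library. Caput principal cells held less of both, 429 and 317, while caput stromal cells were at 1038 for *Fosb* and 1244 for *Egr1*.

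The corpus set was small and partly carried by few cells. *Gsta3* (chr1:21240589-21265661), an alpha-class glutathione S-transferase, stood at 55.0, 208, 85.0 and 28.3 UPM, 2.45 times the cauda (1.88 to 3.23), and was seen in 200 of 306 corpus cells. When every cell was thinned to 1000 UMIs, leaving out 46 shallower cells, *Gsta3* was found in 21.7% of corpus cells (95% exact binomial interval 17.0 to 26.9) against 7.26% for the caput, 6.56% for the cauda and 1.76% for the vas deferens, and in 6.94% of corpus principal cells. *Gstp1* (55.8, 145, 55.4 and 31.0) and *Gstp2* (82.9, 181, 61.8 and 51.4), pi-class enzymes of the same detoxifying superfamily, were 2.59 and 2.18 times the next library. They are near-identical neighbours, and reads that fit both would have been left out of the counts. Corpus principal cells stood close behind at 133 and 155, and with the sums thinned to the depth of the cauda neither gene reached 2-fold.

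*Ppbp* and *Cxcl5*, which encode chemokines of the CXC class, and *Nppb*, which encodes a natriuretic peptide, were the other corpus genes. *Ppbp* was at 0, 61.8, 6.44 and 0, but its 122 corpus UMIs lay in 5 cells and 69 of them in 1 cell. *Nppb* was at 4.11, 61.8, 12.9 and 0.885, its UMIs in 15 cells with 73 in 1 cell, and *Cxcl5* was at 2.46, 41.0, 7.73 and 11.5 in 17 cells. Across all 15 passing corpus genes the median share of corpus cells with a UMI was 9.15%, and 8 of them were seen in under 10% of the cells.

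The 6 named cauda genes included 2 of the cornified envelope, 2 secreted cytokines, a stress-induced inhibitor and a membrane protein. *Sprr2f* (chr3:92365187-92366442), a small proline-rich protein that is cross-linked into the envelope of keratinising cells, stood at 1.64, 21.3, 182 and 39.8 UPM, 4.56 times the vas deferens (3.24 to 6.53). *Sprr2e*, a close paralog, was at 1.64, 4.56, 50.2 and 4.43 and lay in 9 of 131 cells. Reads that fit both paralogs would have been left out of the counts. *Tslp*, an epithelial cytokine that acts on dendritic cells, was at 24.6, 50.1, 178 and 24.8, 3.55 times the corpus (2.72 to 4.64), with 65 of its cauda UMIs in 1 of the 26 cells that held it. *Il11*, of the interleukin 6 family, was at 6.57, 35.4, 122 and 28.3, 3.45 times (2.51 to 4.77).

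Cauda principal cells were at 5.75 for *Tslp* and 9.20 for *Il11*, far below the basal cells beneath them. *Ddit4*, an inhibitor of mTORC1 signalling that is induced by stress, was at 86.2, 98.2, 300.1 and 77.0, 3.06 times the corpus (2.51 to 3.72), though cauda endothelial cells stood higher at 723. *Nnat*, neuronatin, was at 0.821, 3.04, 30.9 and 1.77 with 24 cauda UMIs in 10 cells. The cauda had the fewest cells, and without the cell richest in each gene the number of region-higher genes there was 23 in place of 48.

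In the vas deferens a gene both high and widely found was *Mia* (chr7:27179742-27181157), which encodes a small secreted protein first described in melanoma. It stood at 489, 392, 309 and 2529.8 UPM, 5.18 times the caput (4.74 to 5.67), and was seen in 265 of 291 cells. At 1000 UMIs a cell it was found in 76.4% of vas deferens cells (71.0 to 81.2) against 38.5%, 27.6% and 25.4% in the caput, corpus and cauda, and in 2.07% of vas deferens principal cells. The 4 main basal sums did not overlap in their intervals, and the vas deferens stood apart from the other libraries, which lay within 2-fold of each other.

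*Car13*, a cytosolic carbonic anhydrase, was at 22.2, 29.4, 21.9 and 159, 5.43 times the corpus (4.02 to 7.43), in 120 of 291 cells, and *Egln3*, a prolyl hydroxylase that acts on hypoxia-inducible factors, at 1.64, 5.06, 2.58 and 49.6, 9.79 times (4.95 to 21.5). *Upp1* (uridine phosphorylase) was at 7.39, 12.7, 10.3 and 80.6 and *Iigp1* (an interferon-inducible GTPase) at 14.8, 33.4, 37.3 and 227. Endothelial cells of the same library held more of both, 471 and 1087. *Cldn5*, the claudin of endothelial tight junctions, was at 0, 2.53, 1.29 and 68.2, but its 77 UMIs lay in 6 cells with 40 in 1 cell. Without the 45 cells that held other types' markers no UMI of it was left. *Cldn5* is itself among the markers that define those cells, so this loss says nothing more about its source.

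**Figure D2:**
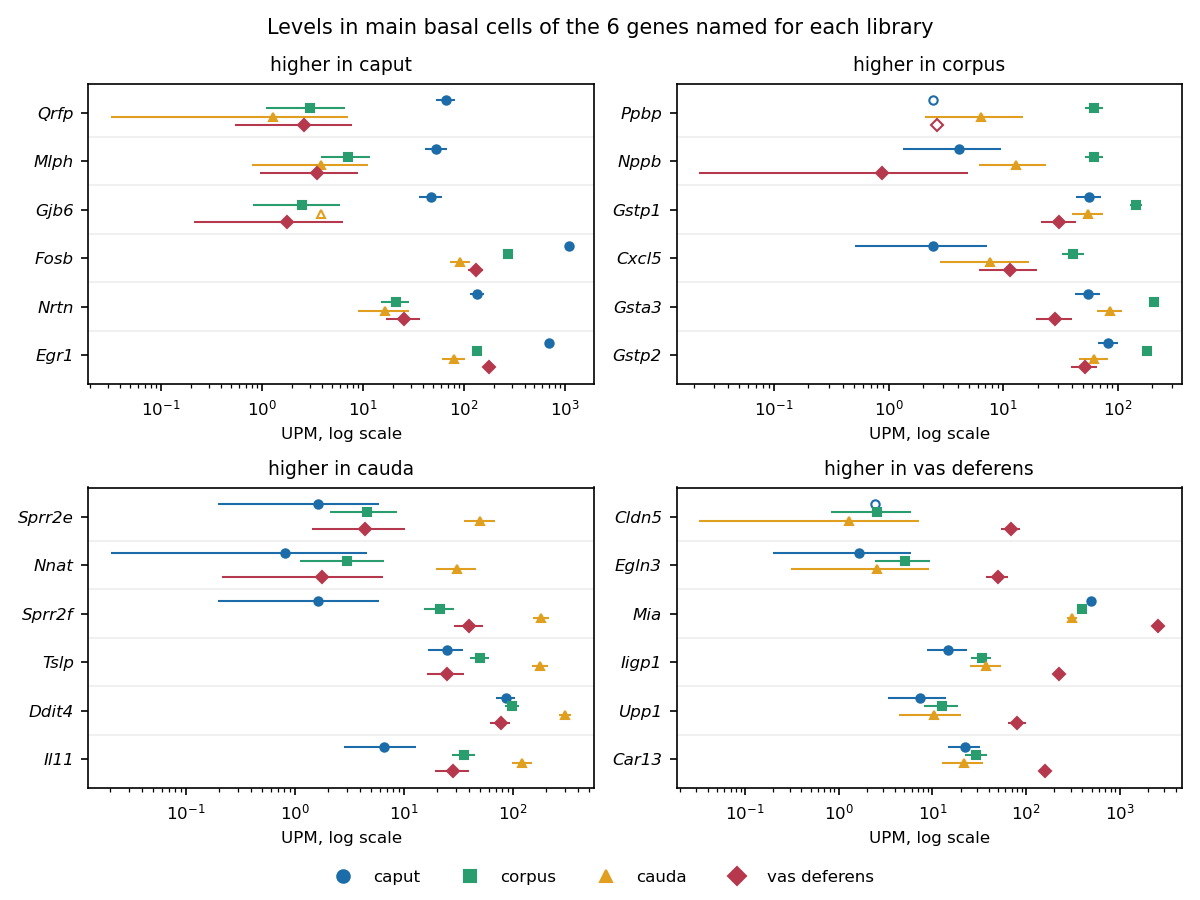
Each panel gives the level of 6 genes in the main basal cells of the 4 libraries, in UPM on a log axis, with exact 95% counting intervals, and a hollow marker stands for 0 UMIs drawn at the level of 3 UMIs. Each panel's own library stands above the other 3 for all of its genes, by 21.9-fold for *Qrfp* in the caput and 2.18-fold for *Gstp2* in the corpus.

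Of the 706 region-higher genes 283 failed the principal-cell check, and the share that failed was largest in the corpus. That share was 36.8%, 67.4%, 16.7% and 45.6% along the tube. In the corpus 30 of 31 failing genes stood below corpus principal cells, at a median of 2.01% of the principal level. Among them *Cuzd1*, a secreted glycoprotein, was at 27.1, 220.3, 76.0 and 16.8 in basal cells against 11801 in corpus principal cells, *Defb22*, a beta-defensin of the sperm coat, was at 4.11, 154, 10.3 and 0.885 against 7585, and *Abcb5*, a transporter, was at 18.9, 115, 15.5 and 20.4 against 491.

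The caput differed, since its 108 genes below principal cells stood at a median of 56.9% of the principal level. *Crip1*, a LIM-domain protein, was at 894, 67.8, 54.1 and 132 against 11180.0 in caput principal cells, *Glul*, glutamine synthetase, at 801, 153, 115 and 221 against 1440.1, and *Fos* at 1299.9, 134, 91.4 and 236 failed through the 6458 of caput stromal cells. In the vas deferens 67 of 98 failing genes stood above principal cells and failed only through other cells. *Akr1b7*, an aldo-keto reductase that marks vas deferens principal cells, was at 0.821, 2.03, 0 and 883 against 51317, whereas *Gsn* (gelsolin) at 409, 347, 357 and 892 and *Gem* (a small GTPase) at 147, 131, 111 and 297 stood below stromal cells at 22706 and 1023. In the cauda only 8 genes failed, among them *Serpine2*, a protease inhibitor, at 42.7, 90.6, 268 and 88.5 against 670.2 in principal cells, the complement inhibitor *Serping1* at 50.9, 63.8, 164 and 81.5 against 414, and the ligand *Wnt7b* at 1.64, 21.3, 65.7 and 31.0 against 86.8.

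The level of principal-cell transcripts in main basal cells was read from 102 genes of secreted principal-cell families (lipocalins, defensins, cystatins, protease inhibitors and others). Their summed level in main basal cells was 4.35%, 4.14%, 2.28% and 3.23% of that in principal cells of the same library, and they made up 1.28%, 0.780%, 0.541% and 0.382% of the basal UMIs. *Gpx5*, the secreted glutathione peroxidase of the caput, was at 766, 0, 6.44 and 0 in basal cells beside 57990.3 in caput principal cells. *Spag11b*, a defensin-like sperm-binding protein, was at 572, 1.52, 6.44 and 0 beside 44409. Without called doublets the share was 3.27% in the corpus and 2.02% in the cauda. Whether these UMIs came from free RNA, doublets or the basal cells, and their part in the failing genes, was not tested. Of 193 passing caput genes with 20 UMIs in principal cells, 13 were also region-higher in principal cells of the caput, against 39 of 138 failing genes. The corpus gave 0 of 9 and 23 of 31, the cauda 0 of 29 and 3 of 8, and the vas deferens 7 of 74 and 23 of 76.

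The boundary between the corpus and the cauda was marked by the inhibitors of differentiation. These Id proteins lack a DNA-binding domain, dimerise with basic helix-loop-helix factors and so keep them from DNA, and they are classic targets of BMP signalling. *Id3* (chr4:136143497-136145755) stood at 35.3, 47.6, 1014 and 1295 UPM, so the lower of the 2 distal libraries was 21.3 times the higher of the 2 proximal ones. *Id1* (chr2:152736251-152737410) was at 23.8, 2.03, 288 and 219, *Id2* at 41.1, 60.3, 515 and 619.8 and *Id4* at 49.3, 16.2, 159.7 and 143. All 4 genes were higher in both distal libraries than in either proximal one.

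At 1000 UMIs a cell *Id3* was found in 3.35% of caput cells, 6.64% of corpus cells, 47.5% of cauda cells and 55.3% of vas deferens cells, and before thinning in 28 of 189, 54 of 306, 88 of 131 and 198 of 291. Principal cells of the same libraries followed the same order for *Id3* (23.2, 105, 333 and 438), standing above main basal cells in the corpus and below them in the other 3 libraries, and had 5.22, 7.05, 134 and 105 of *Id1*. Clear cells were at 41.4, 38.5, 846 and 1268 for *Id3* and stromal cells at 496, 657, 2019.7 and 2719.6, so higher *Id3* in the distal libraries was also seen in these types. *Id2* in stromal cells did not share it, with 1097, 465, 512 and 699. *Smad7*, an inhibitory Smad that is also induced by this pathway, was at 58.3, 29.9, 174 and 146 in main basal cells.

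Of 4039 genes, 42 (1.04%) were higher in both the cauda and the vas deferens than in either proximal library by 2-fold, and 25 passed the check in both. Beside *Id3* the largest ratios belonged to *Trem2*, *Aqp3* and *Ivl*. *Trem2* (chr17:48346401-48354147), a lipid-sensing receptor best known from macrophages and microglia, stood at 9.85, 16.2, 194 and 268, a ratio of 12.0. It was seen in 62 of 131 cauda cells and 126 of 291 vas deferens cells, was at 164 in immune cells of the vas deferens and 1.49 in its principal cells, and at 1000 UMIs a cell was found in 0%, 1.05%, 12.3% and 19.0% of main basal cells against 0.259% of vas deferens principal cells. Of 10 immune markers in the table, 3, 3, 2 and 9 had a UMI in the main basal cells of the 4 libraries, at a summed 3.28, 5.06, 59.2 and 288, and their part in the *Trem2* values was not tested. *Aqp3*, an aquaporin of basolateral membranes that also passes glycerol, was at 0.821, 7.09, 85.0 and 54.0, and *Ivl* (involucrin, a cornified-envelope precursor) at 0.821, 3.04, 32.2 and 22.1.

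In the opposite sense, 65 of 5503 genes (1.18%) were higher in both the caput and the corpus than in either distal library, and 21 passed. *Adh7* (chr3:138217760-138233382), an alcohol dehydrogenase that oxidises retinol, was at 181, 263, 42.5 and 41.6, with the lower proximal library 4.25 times the higher distal one, and principal cells at 0.214 to 14.1. *Fam213b*, a prostaglandin F synthase, was at 259, 97.2, 18.0 and 26.6, a ratio of 3.66. Of the other pairs, caput with vas deferens held 38 genes (0.777%), corpus with cauda 24 (0.579%), corpus with vas deferens 7 (0.133%) and caput with cauda 4 (0.101%). Among the proximal genes *Tmem132b*, a membrane protein, was at 48.4, 42.5, 7.73 and 9.74 and the potassium channel *Kcnh1* at 30.4, 35.9, 7.73 and 8.85.

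Genes that were at least 2-fold lower in 1 library than in every other numbered 143 for the caput (3.56% of 4021 genes with 20 UMIs in the other 3), 16 for the corpus (0.413% of 3877), 114 for the cauda (2.35% of 4845) and 31 for the vas deferens (0.786% of 3944). Low in the caput were *Rrp1b*, a nucleolar protein, at 3.28, 31.4, 42.5 and 39.8, the cytokine *Lif* at 8.21, 79.0, 68.3 and 64.6, and the intermediate filament *Nes* at 4.93, 48.1, 61.8 and 31.0. Low in the corpus, beside *Id1*, were *Fmod*, a collagen-binding proteoglycan, at 96.1, 21.8, 144 and 208, the complement component *C3* at 34.5, 9.11, 128 and 335, and *Plek2* at 47.6, 10.6, 42.5 and 39.0. *C3* was therefore both lowest in the corpus and highest in the vas deferens, where 151 of 291 cells held it and principal cells were at 1.92.

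Low in the cauda were the potassium channel *Kcnk2* at 50.9, 17.7, 2.58 and 39.8, the innate immune kinase *Alpk1* at 18.1, 18.7, 3.86 and 17.7, *Efcab1* at 20.5, 27.3, 5.15 and 19.5, and *Trim29*, found in basal layers of many epithelia, at 28.7, 12.2, 0 and 21.3, which is at least 7.44-fold lower in the cauda than in the caput. Low in the vas deferens was *F3* (chr3:121723537-121735048), tissue factor, the membrane receptor that starts coagulation. It stood at 2522, 5185, 2608 and 995, was seen in 177, 290, 114 and 213 cells, and had 7.05 to 85.3 in principal cells. *Dio3*, the deiodinase that inactivates thyroid hormone, was at 37.0, 41.0, 28.3 and 8.85, *Lbh* at 139.6, 151, 149 and 49.6 and *Phyhd1* at 101, 54.7, 25.8 and 10.6.

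*Hes1*, the transcriptional repressor downstream of Notch receptors, and the ligand *Dll1* stood higher at each step along the tube, by 2-fold only at the first. *Hes1* was at 166, 467, 868 and 1386 UPM, 8.35 times higher in the vas deferens than in the caput (7.21 to 9.72), and was found in 12.8%, 33.2%, 54.1% and 60.2% of cells at 1000 UMIs a cell (before thinning in 55, 219, 107 and 236 cells). *Dll1* was at 51.7, 119, 143 and 264, 5.10 times (3.88 to 6.80). The other 6 measured genes of the Notch list were not called in either direction, with *Notch2* at 33.7, 29.9, 33.5 and 50.5 and *Jag1* at 74.7, 93.7, 67.0 and 76.2. Principal cells had 202, 150.1, 161 and 368 of *Hes1*, which did not show the same order.

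**Figure D3:**
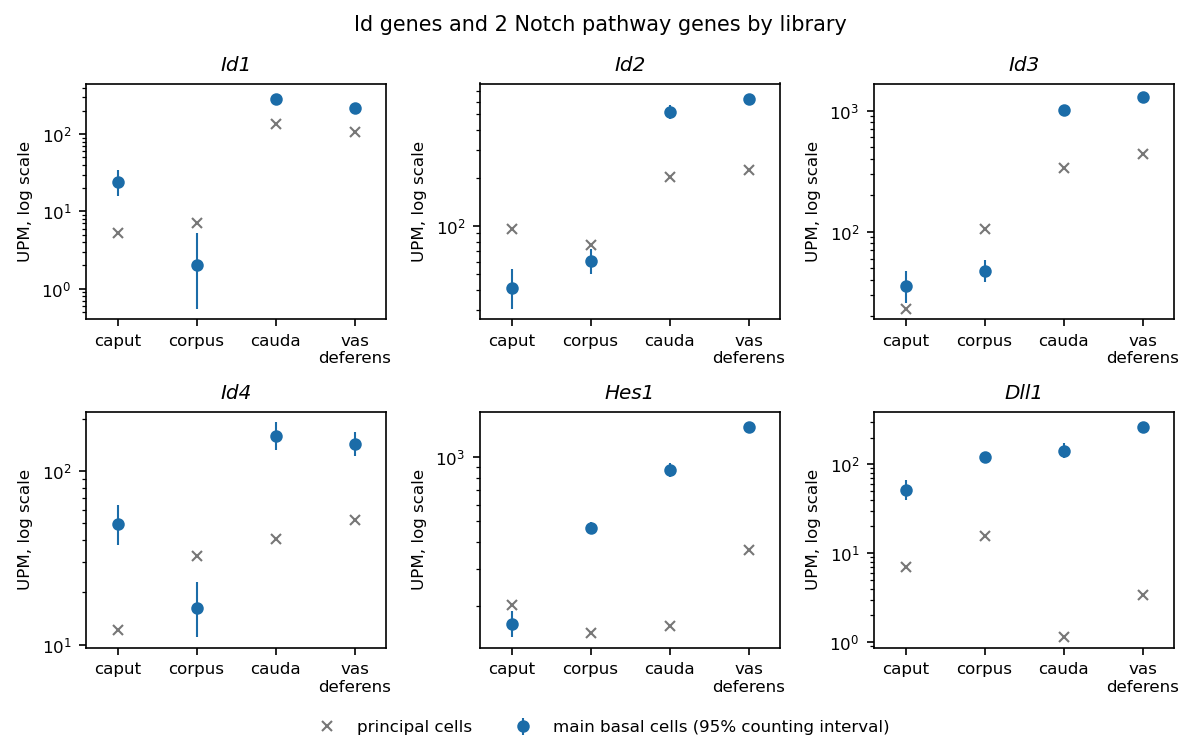
Levels of Id and Notch pathway genes in UPM on a log axis, with dots and exact 95% counting intervals for main basal cells and crosses for principal cells of the same library. *Id3* steps from 47.6 in the corpus to 1014 in the cauda, while *Hes1* climbs through all 4 libraries from 166 to 1386.

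Interferon-induced and MHC class I genes were highest in the vas deferens. These genes serve antigen presentation and cell-intrinsic defence: immunoproteasome subunits cut peptides, class I heavy chains with *B2m* present them, and guanylate-binding and Ifit proteins act on intracellular pathogens. Of 28 list members with 20 UMIs, 24 were highest in the vas deferens, against 31.2% of all genes. There 10 were region-higher against a background of 3.9%, and 8 of them passed the check, against 2.12%. With median-of-ratios scaling 24 were still highest there, against 24.7% of all genes, 7 were region-higher and 6 passed. The summed level was 8885, 7942, 12889.5 and 21200.3 UPM, 2.67 times higher in the vas deferens than in the corpus (2.62 to 2.72), against 2707, 9034, 15909 and 6954 in principal cells. Endothelial (13543, 17189, 15341 and 23162) and immune cells (12352, 18148, 17985 and 19531), whose markers were also highest in vas deferens main basal cells, had the highest sum in the vas deferens as well, and their part in the result was not tested.

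*H2-Q7*, a class I heavy chain, was at 4.93, 4.05, 9.02 and 66.4, 7.37 times the cauda (3.40 to 18.9). Reads of it that also fit near-identical neighbours would have been left out of the counts. *Gbp7* was at 10.7, 3.54, 1.29 and 46.9, *Isg15*, a ubiquitin-like modifier, at 14.8, 26.3, 100.5 and 174, and *Ifit3*, with no UMI in the caput, at 0, 2.53, 12.9 and 27.4. *H2-K1*, *H2-Q4*, *Psmb8*, *Psmb9*, *Psmb10*, *Gbp2* and *Irf7* were the other region-higher members. Without the cells holding other types' markers the list summed to 8892, 7850, 12357 and 19892, with 23 of 28 highest in the vas deferens, but 6 rather than 10 region-higher (*Psmb8*, *Psmb9*, *Tap1*, *H2-Q7*, *Gbp2* and *Gbp7*). Endothelial cells of the vas deferens stood higher than its main basal cells for *Gbp7* (198) and *Ifit3* (143).

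The promoters of these genes were read for the interferon-stimulated response element, the site bound by the STAT and IRF factors of this response. The motif searched was GAAA, any 2 bases and GAAA again, on either strand, so that it reads TTTC, any 2 bases and TTTC on the other, from 250 bases before to 50 after the start in RefSeq. It was present in 11 of 25 list members with an entry (44.0%), against 3.63% of 5539 genes with 20 UMIs in main basal cells and 3.99% of all 27025 promoters. The list was chosen by function, as interferon-response and class I genes, and not by region. Of the 10 region-higher members a smaller share than over the whole list held the motif, namely *Ifit3*, *Gbp2* and *Gbp7*. Their 250 bases before the start are shown, in GRCm38.p6 and on the plus strand, because they are the members higher in the vas deferens that carry the motif, which is in capitals. The windows are chr19:34583279-34583528, chr3:142620413-142620662 and chr3:142530086-142530335.
Ifit3: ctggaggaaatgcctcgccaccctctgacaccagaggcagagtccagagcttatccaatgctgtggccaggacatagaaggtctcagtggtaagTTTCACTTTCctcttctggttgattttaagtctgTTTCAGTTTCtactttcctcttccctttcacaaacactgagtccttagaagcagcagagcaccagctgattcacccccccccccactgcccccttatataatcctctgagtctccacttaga
Gbp2: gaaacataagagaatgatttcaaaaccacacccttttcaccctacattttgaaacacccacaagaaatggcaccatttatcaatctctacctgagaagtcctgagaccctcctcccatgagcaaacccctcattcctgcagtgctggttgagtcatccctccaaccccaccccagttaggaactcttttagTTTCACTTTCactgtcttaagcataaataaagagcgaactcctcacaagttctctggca
Gbp7: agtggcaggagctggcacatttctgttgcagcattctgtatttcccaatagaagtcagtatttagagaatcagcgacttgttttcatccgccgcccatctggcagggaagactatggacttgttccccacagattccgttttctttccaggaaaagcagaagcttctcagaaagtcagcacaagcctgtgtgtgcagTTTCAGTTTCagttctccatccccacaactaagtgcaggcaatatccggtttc
The match is a description of the letters, and binding was not measured. *Ifit3* holds the motif 2 times, 156 and 122 bases before the start, and in *Gbp2* and *Gbp7* it lies 59 and 53 bases before.

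**Figure D4:**
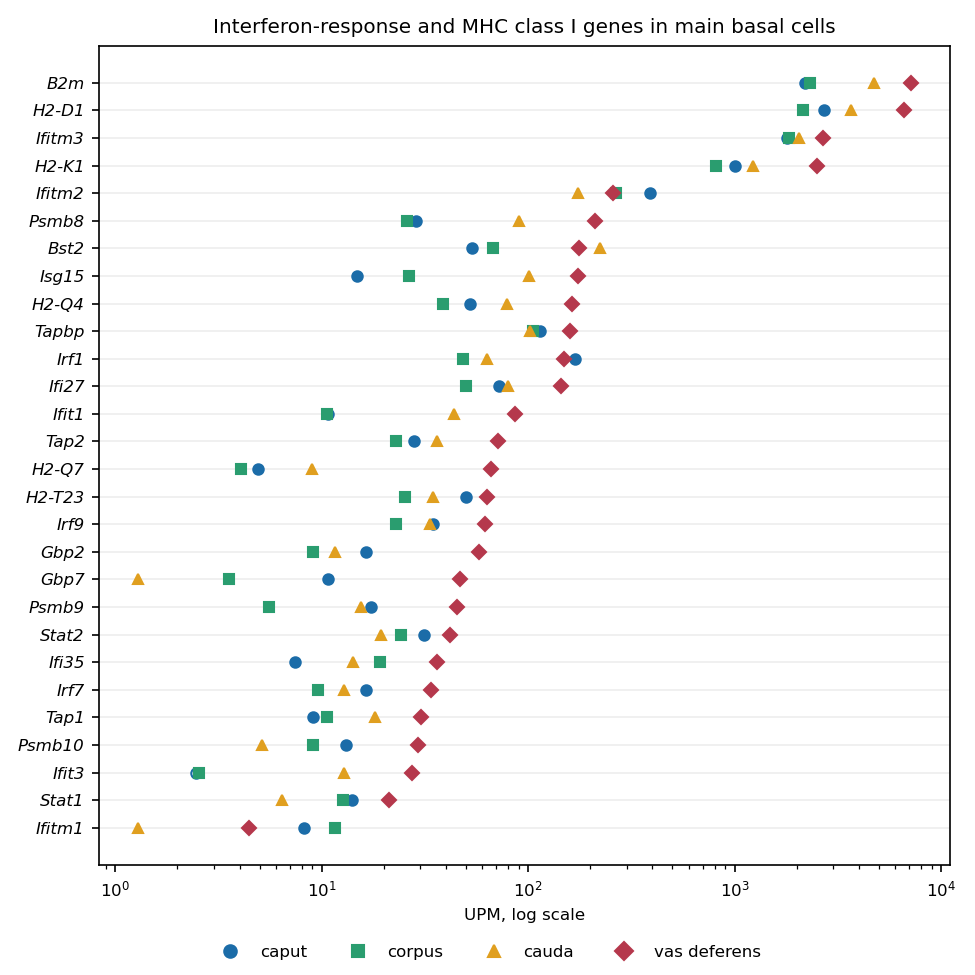
Levels of the 28 interferon and MHC class I genes in the main basal cells of the 4 libraries, in UPM on a log axis, with 0 UMIs (*Ifit3* in the caput) drawn hollow at the level of 3 UMIs. For 24 of the genes the vas deferens is the highest library, and for *H2-Q7* it stands 7.37 times above the next.

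Class II genes, which are typical of antigen-presenting leukocytes, also carried UMIs in the distal libraries. *Cd74*, the invariant chain of MHC class II, was at 1.64, 4.05, 58.0 and 224 UPM and in 2, 8, 19 and 87 cells, and *H2-Ab1* at 0, 3.54, 9.02 and 39.8. Of the 3 class II genes with 20 UMIs these 2 were highest in the vas deferens, against 31.2% of all genes. The other 1 was highest in the corpus, against 10.8%. At 1000 UMIs a cell *Cd74* was found in 12.3% of vas deferens main basal cells (8.74 to 16.7) against 0.259% of vas deferens principal cells. It failed the check, since immune cells of the library stood at 21381. Of the 10 immune markers in the table only *Cd3e* was at 0 in the vas deferens. Whether these UMIs belong to the basal cells or to immune cells captured with them was not tested.

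Genes of complement and antimicrobial defence were divided among the regions. *Defb1*, a constitutive beta-defensin (chr8:21776599-21795185), stood at 1431, 599, 499.7 and 116 UPM, 2.39 times higher in the caput than in the corpus (2.22 to 2.57) and also lowest in the vas deferens. *Lcn2*, the siderophore-binding lipocalin, was at 6975, 2364, 1714 and 1694. It passed the check in the caput, though caput principal cells held 5695. Of 9 complement and antimicrobial genes with 20 UMIs, 2 were region-higher in the caput, 1 in the cauda (*Serping1*) and 2 in the vas deferens, where *C3* passed the check and the protease *C1ra* (6.57, 2.53, 2.58 and 19.5) did not. Over all genes the shares were 6.8%, 1.15% and 3.9%, with 2.12% passing in the vas deferens. *Slpi*, an antiprotease, was at 164, 434, 817 and 154, highest in the cauda without being called.

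Among 17 cytokine and chemokine genes the region-higher ones were *Cxcl5* in the corpus, *Tslp* in the cauda and *Ccl2*, *Ccl7* and *Cxcl14* in the vas deferens, where none of the 3 passed the check. Of all genes 0.692%, 1.15% and 3.9% were region-higher in the corpus, cauda and vas deferens. *Ccl2* was at 0.821, 4.05, 0 and 70.0 and *Ccl7* at 0.821, 0, 1.29 and 54.9. *Cxcl1*, a neutrophil attractant, was at 1022, 885, 164 and 244, highest in both proximal libraries. The list as a whole had a median ratio of highest to lowest library of 4.24, against 1.90 for all 7180 genes.

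Genes of androgen and retinoid handling were highest in the caput. Of 10 steroid-hormone genes with 20 UMIs, 5 were region-higher in the caput against a background of 6.8%, and all 5 passed the check. *Srd5a2* (chr17:74016955-74047916), the 5-alpha reductase that turns testosterone into dihydrotestosterone, was at 182, 68.4, 11.6 and 34.5, 2.67 times higher in the caput than in the corpus (2.14 to 3.33) and 15.7 times higher than in the cauda (8.14 to 34.8). It was seen in 107 of 189 caput cells and stood at 135 in caput principal cells. *Srd5a3* was at 22.2, 7.59, 2.58 and 10.6, *Hsd17b4* at 33.7, 11.6, 7.73 and 12.4 and the glucocorticoid-induced *Tsc22d3* at 191, 44.6, 54.1 and 69.1. *Sult1e1*, the oestrogen sulfotransferase, instead had no UMI in the cauda, at 42.7, 44.6, 0 and 45.2.

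Of 7 retinoid genes 3 were region-higher in the caput and passed, against 4.3% of all genes. *Dhrs3*, a retinaldehyde reductase, was at 117, 23.8, 18.0 and 39.0, 3.01 times the next library (2.14 to 4.33), and the receptor *Rxra* at 23, 8.10, 7.73 and 2.66. *Aldh1a1*, which makes retinoic acid, declined through the tube at 653, 439, 191 and 147 without reaching 2-fold at the first step. *Crabp2* was highest in the cauda, at 17.2, 4.56, 34.8 and 13.3, below cauda principal cells at 118. The summed level of the list was 1238, 677, 466 and 405.

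Sterol synthesis ran the other way. Of 13 genes of the mevalonate and cholesterol pathway 11 were highest in the vas deferens, against 31.2% of all genes. The sum was 328, 434, 680.0 and 1097 UPM, 3.35 times higher in the vas deferens than in the caput (2.99 to 3.76). *Sqle*, the squalene epoxidase, was at 6.57, 19.7, 50.2 and 76.2, *Cyp51* at 9.85, 24.8, 68.3 and 96.5 and *Stard4*, a cholesterol carrier, at 3.28, 3.04, 12.9 and 27.4. *Fdps* had 1 UMI in the caput and was at 0.821, 15.2, 39.9 and 44.3, a ratio of 53.9 that counting error alone leaves between 9.24 and 2172. Principal cells stood higher throughout, with sums of 1784, 1651, 4175 and 3855, so none of the 3 genes region-higher in the vas deferens passed the check. Over all genes 3.9% were region-higher there and 2.12% passed. *Abca1*, which exports cholesterol, was instead highest in the caput, at 103, 25.3, 19.3 and 35.4.

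*Apoe*, a lipid carrier, was at 26632, 22913, 16761 and 14166, against 35.6 to 1553 in principal cells. Of 19 genes of fatty acid and prostaglandin metabolism the 2 low in the caput were *Ptgs2* and *Ptges*. *Ptgs2*, the inducible cyclooxygenase, was at 91.2, 412, 645 and 236, 7.08 times higher in the cauda than in the caput (5.75 to 8.78), beside 2834 in vas deferens principal cells, and *Ptges*, the prostaglandin E synthase, at 95.3, 296, 310.4 and 360.4.

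Immediate-early and heat shock genes were highest in the caput, with 28 of 41 members highest there, against 34.9% of all genes, 8 region-higher, against 6.8%, and 5 of those passing, against 4.3%. *Dnajb1*, a co-chaperone, was at 1491, 639, 155 and 347, and *Klf2*, a zinc-finger factor, at 205, 20.3, 33.5 and 43.4, below caput principal cells at 217. *Dusp6*, a phosphatase that ends ERK signalling, was instead highest in the vas deferens at 61.6, 92.2, 48.9 and 269. The list summed to 41583, 26657, 24016 and 34132 UPM in main basal cells and to 17804, 22022, 13898 and 10117 in principal cells. The list was also highest in the caput in clear (29492, 23138, 19902 and 19812), stromal (53768, 36812, 31836 and 33332) and immune cells (44049, 30705, 25443 and 19561), whereas principal and endothelial cells were highest in the corpus.

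Genes of antioxidant defence and detoxification were highest in the corpus for 17 of 32 members, against 10.8% of all genes, and 4 were region-higher there against 0.692%. Beside the glutathione transferases these were *Nqo1*, a quinone reductase, at 6.57, 38.5, 5.15 and 0.885, which stood below corpus principal cells at 92.3, and *Aldh3a1*, an aldehyde dehydrogenase, at 0, 14.7, 0 and 1.77. *Aldh3a1* lay in 24 of 306 corpus cells and had no UMI in principal cells of any library. *Cyp1b1* was at 4.11, 25.3, 34.8 and 14.2. The summed level was 7364, 9749.8, 6156 and 6513. Metallothioneins and iron genes were not called in any library, with *Mt1* at 13227, 13315, 6844 and 13057.

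S100 proteins and annexins, which bind calcium and membranes, had a summed level of 5823, 8839, 14478 and 9592, to which *S100a6* gave most in the cauda, and 7 of 14 members were highest there. *S100a6* (chr3:90612882-90624181) was at 1786, 3267, 8253 and 4002, 2.06 times the vas deferens (1.98 to 2.14), and was found in 63.7%, 83.6%, 97.5% and 87.0% of cells at 1000 UMIs a cell against 3.00% of cauda principal cells (before thinning in 175, 271, 128 and 269 main basal cells). *Anxa3* was at 16.4, 69.9, 147 and 62.9. These were the 2 members of 14 that were region-higher in the cauda, against 1.15% of all genes, and the median ratio of the list, 1.62, lay below the 1.90 of all genes. Without the cells holding other types' markers only *Anxa3* was region-higher there, and with all basal populations together only *S100a6* was.

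Cell-matrix and cell-cell contact genes were called in both directions. Of 14 hemidesmosome and integrin genes 1 was region-higher in the caput and 1 in the vas deferens. Of 20 basement membrane genes 2 were region-higher in the caput and 1 in the vas deferens. Over all genes the shares were 6.8% and 3.9%, and neither list had a region-higher gene in the corpus or the cauda. At least 2-fold lower than in every other library were 3 of the 14 in the caput, against 3.56% of all genes. In the cauda 1 gene of each list was lower in this way, against 2.35%. No call in either direction was made for 9 of the 14 and 16 of the 20. *Sparc* (chr11:55394500-55423183), a collagen-binding matricellular protein, was at 1251, 323, 201 and 349.8, 3.58 times higher in the caput than in the next library (3.20 to 4.01), and the type IV collagen chain *Col4a3* was at 55.8, 27.8, 14.2 and 23.9. *Col4a4* followed at 61.6, 31.9, 7.73 and 15.9 without being called. Among integrins *Itgb5* was highest in the caput (154, 39.5, 18.0 and 38.1), while *Itga3*, a laminin receptor subunit, was lowest there (58.3, 147, 254 and 151), as was *Itgb6* (19.7, 61.3, 99.2 and 73.5). The hemidesmosome genes *Col17a1* (83.8, 77.0, 38.6 and 33.6) and *Itgb4* (74.7, 109, 138 and 128) were not called.

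Of 31 junction genes 2 were region-higher in the caput, against 6.8% of all genes, and 2 in the cauda, against 1.15%. *Gjb2*, connexin 26, shared the pattern of *Gjb6* at 30.4, 5.06, 1.29 and 3.54. *Cldn7* was highest in the cauda at 37.0, 114, 482 and 192, 2.51 times the vas deferens (2.12 to 2.98), and *Cldn3* was lowest in the caput at 13.1, 56.2, 222 and 189, though below principal cells in all 4 libraries (400.3 to 1034). *Cldn8* was lowest in the cauda at 46.8, 19.7, 3.86 and 42.5. None of 11 keratins was called, with *Krt14* at 2193, 2984, 3759 and 2973 and *Krt5* at 490.2, 256, 155 and 251. Of the 15 basal markers only *Trp63* (chr16:25683763-25892102), which encodes p63, was region-higher, at 124, 31.9, 25.8 and 39.8, 3.11 times higher in the caput than in the vas deferens (2.22 to 4.44).

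Among growth factors *Igfbp5*, an IGF-binding protein, was highest in the caput at 176, 40.5, 18.0 and 32.8, and *Fgfbp1*, which releases FGF from matrix, in the cauda at 9.03, 26.8, 74.7 and 29.2. *Igfbp3* was high in the corpus and cauda, at 53.4, 231, 213 and 35.4. The EGF-family ligands *Areg* (6.57, 35.9, 47.7 and 22.1) and *Tgfa* (11.5, 57.7, 72.1 and 68.2) were lowest in the caput, whereas their receptor *Egfr* was even along the tube at 96.1, 99.7, 107 and 109.8. Of 16 Wnt genes *Wnt10a* was lowest in the caput at 27.9, 81.5, 176 and 132.

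Of 36 epithelial transcription factors 2 were region-higher and passing in the caput, a share near the 4.3% of all genes, *Trp63* and *Nfix* (331, 94.2, 77.3 and 139), and 2 in the cauda, where 0.959% of all genes did so, *Ovol1* (37.0, 116, 384 and 167), which promotes epithelial differentiation, and *Foxq1* (70.6, 80.5, 321 and 155). In the vas deferens the pioneer factor *Foxa1* passed, at 18.1, 15.7, 24.5 and 54.0, and *Gata2* failed, at 3.28, 1.52, 5.15 and 24.8 below principal cells at 177. Of the Hox genes *Hoxd3* (27.9, 6.58, 7.73 and 7.97) and *Hoxb8* (126, 39.0, 29.6 and 30.1) were highest in the caput and *Hoxd9* (12.3, 8.10, 30.9 and 15.1) in the cauda. *Hoxb8* stood below caput principal cells at 199.6, and *Hoxd9* failed the check through other cells of the cauda. Among progenitor genes *Ly6d*, a GPI-anchored surface protein of lineage-restricted cells, was at 639.7, 257, 209.9 and 1553, 2.43 times higher in the vas deferens than in the caput (2.23 to 2.65), in 231 of 291 cells.

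*Mmp7*, matrilysin, showed the largest ratio among proteases. It stood at 158, 35.9, 90.2 and 2.66 with 3 UMIs in the vas deferens, a 59.7-fold difference between caput and vas deferens (20.1 to 292). *Htra1* was highest in the caput (128, 53.2, 20.6 and 21.3). Among transporters *Atp1b1*, the beta subunit of the sodium pump, was highest in the vas deferens at 260.3, 216, 171 and 646, and *Scnn1a*, a subunit of the epithelial sodium channel, in the caput at 21.4, 8.10, 9.02 and 3.54. *Aqp1*, at 0.821, 3.04, 1.29 and 44.3, had no UMI left in the vas deferens without the cells holding other types' markers.

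Housekeeping groups differed little. None of 77 ribosomal protein genes was called, and their summed level was 224333, 253499, 258313 and 209190.0 UPM. The cauda was the highest library for 40 of them and the corpus for 28, which turned to 28 and 49 with the median-of-ratios scaling. Of 71 nuclear-encoded genes of oxidative phosphorylation 48 were highest in the caput, against 34.9% of all genes, with sums of 18096, 16255, 13864 and 13741 and 1 gene region-higher there. With the median-of-ratios scaling the caput led for 37 and the corpus for 28, against 30.1% and 18.7% of all genes. The corpus sum (17252) then passed that of the caput (17017). The 6 proliferation genes with 20 UMIs were not called, at sums of 1614, 1391, 1529 and 1697.

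**Figure D5:**
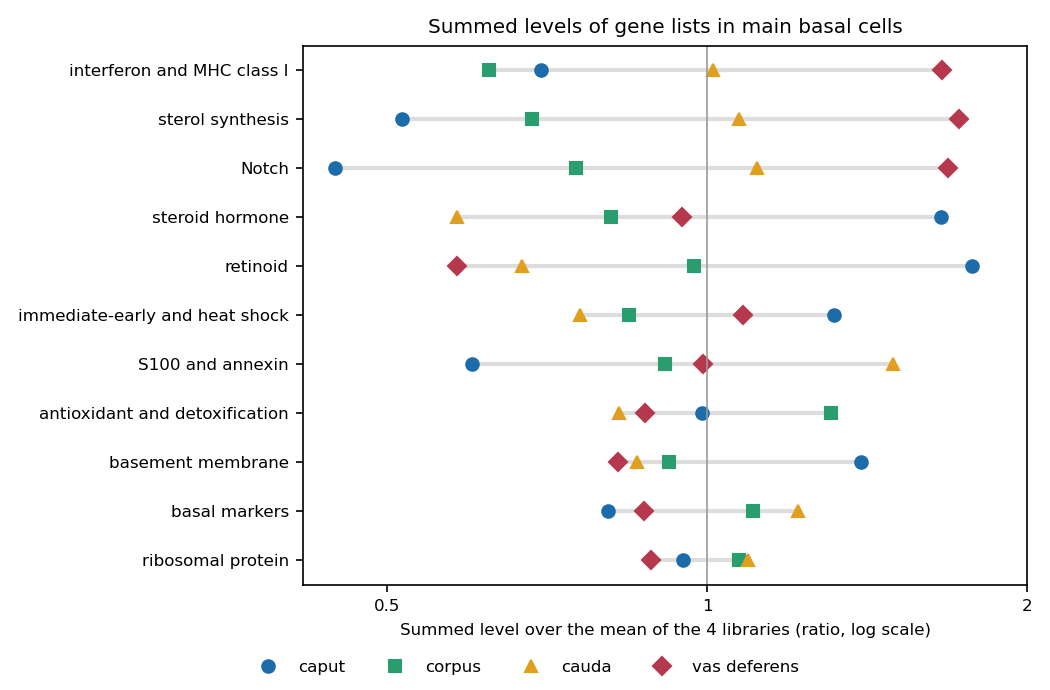
Summed level of each gene list in the main basal cells of the 4 libraries, divided by the mean of the 4, on a log axis. Interferon and MHC class I genes, sterol genes and the Notch list sit highest in the vas deferens, where the Notch sum is mostly *Hes1*, steroid and retinoid genes in the caput, S100 and annexin genes in the cauda, and ribosomal protein genes lie close to 1 in all 4.

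Markers of other cell types were not evenly spread and accompany several vas deferens values. Endothelial markers summed to 11.5, 32.4, 50.2 and 227 UPM, muscle markers to 111, 264, 251 and 503, stromal markers to 44.3, 44.6, 42.5 and 126 and clear cell markers to 43.5, 23.8, 1.29 and 23.9, and no sperm marker had a UMI. Of 8 endothelial markers 4 were at 0 in the caput (*Pecam1*, *Cdh5*, *Vwf* and *Cldn5*) and none in the vas deferens. Cells were left out for endothelial, immune, stromal or clear cell markers only, so cells with muscle markers stayed in. Without these 70 cells the vas deferens count was 153 in place of 215, of which 103 in place of 117 passed, with 89 genes in both sets. The caput count was 398 in place of 397.

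The other basal populations of the same libraries were not used to choose these genes, although they came from the same animals and suspensions. In the low-UMI basal cells (315 cells) 17 of 23 leading genes with a UMI were highest in the same library as in the main basal cells, and in the Notch2 basal cells (165 cells) 15 of 23 were. Over all genes the 4 libraries were highest for 24.6%, 19.0%, 27.2% and 29.3% in low-UMI cells. In Notch2 cells they were highest for 27.0%, 16.7%, 25.3% and 30.9%. Some of the highest levels of leading genes rested on 1 UMI, and in Notch2 cells only 2 of 6 cauda genes kept their library. Of 55 passing caput genes with 20 UMIs in low-UMI basal cells 48 (87.3%) were highest in the caput there, where the caput was the highest library for 24.6% of all genes. Of 22 passing vas deferens genes 20 (90.9%) kept the vas deferens as the highest library, against 29.3% of all genes. In Notch2 basal cells the shares were 44.1% of 59 for the caput, against 27.0%, and 82.4% of 51 for the vas deferens, against 30.9%. Few corpus and cauda genes reached 20 UMIs. In low-UMI cells 3 of 4 and 5 of 11 of them kept their library, and in Notch2 cells 5 of 5 and 12 of 16. Types outside the basal populations also kept the caput more often than all genes did, with 53.2% of 216 passing genes in stromal cells (36.1% of all genes), 50.0% of 74 in endothelial (30.1%), 54.5% of 22 in immune (31.3%) and 35.7% of 168 in clear cells (24.3%). For the vas deferens the shares were 38.5% in stromal (25.4%), 39.1% in endothelial (24.9%), 40.0% in immune (27.6%) and 29.2% in clear cells (29.8%). *Id3* was at 67.4, 47.2, 668 and 1009 in low-UMI and at 29.6, 24.5, 907 and 1492 in Notch2 basal cells.

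With the summed UMIs of each library matched, fewer genes were region-higher in main basal than in principal cells, while the number of cells behind each sum was not matched. With each sum thinned to 776446 UMIs, 528 of 5502 genes (9.60%) were region-higher in main basal cells and 1360 of 6247 (21.8%) in principal cells. At 149811 UMIs, which also admits the other types, the shares were 9.40% in main basal, 30.5% in principal, 8.35% in clear and 11.9% in stromal cells. Principal cells thus had the largest share of the 4 types compared. No error beyond counting can be given for these shares, since each rests on 1 library for each region.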

How the data were processed

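Cells of 4 tissue regions of adult mice were profiled on a droplet platform that tags the 3′ end of transcripts, 1 library for each region. The authors deposited UMI counts for 16892 genes and 8880 cells, together with a table of clusters and cell types. Per the labels and the methods of the study, reads were converted with bcl2fastq, aligned to mm10 with HISAT2 2.0.4 and counted with ESAT, which left out reads of several places, and background RNA was subtracted from the counts with a modified SoupX before deposit. That subtraction removed counts unevenly between genes, so low levels are the least certain.

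Counts of the main basal cells were summed by library with Python 3.11.15, NumPy 2.4.6, pandas 2.3.3 and SciPy 1.17.1, and divided by their total. No test was made, because 1 library for each region leaves no spread between samples, and the pooled tissue of several mice cannot be told apart. Intervals are exact 95% Poisson, conditional binomial or Clopper-Pearson intervals. Doublets were called as the highest-scoring cells of each library against simulated doublets (Scanpy 1.11.5), and were kept. Their number was set by an assumed rate of 0.8% for every 1000 cells, and 28 of the 917 cells were among them. Genes were named by rule: for each library the 6 passing genes with the highest lower bound of the ratio to the next library and the 3 failing genes of highest level, 4 genes for each boundary by the smallest ratio between its sides, and up to 4 genes for each list by the ratio of highest to lowest library, with basal markers named singly. Clones with placeholder names were counted and not named. The members and the gene lists were chosen with earlier results of these data known, and some list members were named after their values were seen. A few list members are counted in their lists but not reported here by name. The rule was tested on simulated data. Alternatives were other fold thresholds, minimums, scalings, depth, cell sets and comparison cells, and figures were drawn with matplotlib 3.10.9.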

Additional observations from a re-analysis of the deposited data

Results flagged for a closer look

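Shown here are 3 genes region-higher in main basal cells of the library where principal cells were lowest. Principal cells of every other library stood at least 2.22 to 2.39 times higher. Without a bound on that ratio, principal cells were lowest in the same library for 36, 2, 4 and 14 passing genes along the tube. For failing genes the numbers were 17, 0, 1 and 8. *Capn1*, a calcium-dependent protease, was 2.13 times higher in corpus main basal cells than in the next library (9.03, 19.2, 7.73 and 8.85 UPM in the caput, corpus, cauda and vas deferens), where principal cells were lowest (15.7, 7.05, 16.7 and 18.2). Its corpus principal level rested on 10 UMIs. *Gcsh*, a carrier protein of the glycine cleavage system, was 2.04 times higher in vas deferens main basal cells (18.9, 39.0, 48.9 and 100.1), where principal cells were lowest (72.5, 196, 112 and 30.5). *Pfkl*, the liver-type phosphofructokinase, was 2.20 times higher there (31.2, 49.1, 45.1 and 108), again with principal cells lowest (44.1, 40.9, 63.2 and 17.1). With 1 library for each region the difference between the cell types was not tested.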

How the results depend on the processing

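No paired analysis was possible because each region is 1 library and no test was made. Counts are in the order caput, corpus, cauda, vas deferens and all. With a fold of 4, region-higher genes numbered 60, 16, 3, 67 and 146 and passing ones 29, 2, 3, 25 and 59, and 221 genes split the libraries. With a fold of 1.5 they numbered 872, 113, 195, 465 and 1645, passing 512, 40, 172, 288 and 1012. With a minimum of 50 UMIs they numbered 167, 29, 18, 94 and 308, passing 117, 7, 15, 58 and 197. Each is a stricter or looser rule by construction. Without the cell richest in each gene the cauda count was 23, of which 19 passed. Passing genes numbered 148 in the caput where basal cells had to reach 2 times the principal level, 184 in the vas deferens against principal cells alone, and 120 in the caput, 59 in the vas deferens and 225 in all where every other type was taken singly. Of the leading genes *Mlph*, *Egr1*, *Ddit4*, *Cldn5*, *Iigp1* and *Upp1* failed that last check. Median-of-ratios scaling gave 23 passing corpus genes, and the mean of the cells' own values gave 61 in the cauda. The level of principal-cell transcripts, as a share of principal cells, was 3.27% in the corpus and 2.02% in the cauda without called doublets, and 4.64%, 4.59%, 2.63% and 2.78% along the tube by the mean of cells. The cause of these shifts was not tested.

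Without the cells holding other types' markers the higher side turned for the endothelial list (vas deferens 0.635 of the caput), *Emcn*, *Cdh5* and *Fxyd5* (0.423 each) and *Pecam1* (0.847), while *Cldn5*, *Aqp1*, *Atp6v1g3* and *Lyz2* were left at 0. These genes are markers of the removed cells or lay in few cells. *Atp6v1g3* and *Lyz2* were also at 0 without called doublets, and *Atp6v1g3* turned to 0.168 with all basal populations together. By the mean of cells the stromal list (0.941), *Dcn* (0.619) and *Egfr* (0.940) turned, and by median-of-ratios scaling the protease list (0.976). Counts of calls stayed within 1.5 times of those reported with a floor of 1 UMI, with cells of at least 1000 UMIs, with sums thinned to the smallest library, with all basal populations, with the largest cluster only, without shared barcodes and without marker cells. Thinning shared 139 of 251, 5 of 15, 34 of 40 and 83 of 117 passing genes. Leaving out shared barcodes, marker cells or the richest cell and taking every type singly were chosen after the data had been seen.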
